A study of Mus musculus with 23 samples.

Results

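Activated B cells that carried no guide RNA were set beside naive B cells that carried none, in a mouse RNA-seq series on Irf8 knockout during B cell differentiation. The members were the 9 unguided (WT) libraries of these 2 stages among the 23 libraries of the series. They were chosen by their labels as 3 activated WT libraries (m1, m2 and m3) and 6 naive WT libraries (A, B and C of 2 arms named for guide 1 and guide 2). Naive WT cells came from spleen, had no treatment, and were sorted as B220+ cells without CD11b, F4/80, Thy1.2 or Thy1.1. Activated WT cells came from naive B cells that had spent 72 hours in culture with 20 ng/ml of IL-2, 5 ng/ml of IL-5 and LPS, whose dose the labels write as 20 mg/ml, and were sorted by the same markers with GL7 present and CD138 absent. The guide-carrying (KO) cells were sorted as Thy1.1+ and held guide 1 or guide 2 against Irf8 when naive and guide 1 when activated. Strain, age, sex, the way guides were delivered and whether unguided cells held a nuclease are not given in the sources used here. The labels do not say that letters or m-numbers stand for separate animals or cultures, so the spread between libraries may be technical.

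Naive B cells are small resting cells held in G0 by factors such as KLF2, and they recirculate between blood and lymphoid follicles. LPS, a component of bacterial outer membranes, acts through TLR4 with MD-2 and drives them to grow, divide and switch antibody class, while IL-2 and IL-5 favour their maturation into antibody-secreting cells. Blimp-1 (Prdm1), IRF4 and XBP1 drive the secretory state, and PAX5, BACH2 and BCL6 hold cells in the B cell state. GL7 is a glycan on activated B cells, and CD138 (syndecan-1, Sdc1) marks plasmablasts and plasma cells, so the activated sort left out cells with much CD138.

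Naive and cultured libraries were deposited in separate tables, so table and stage cannot be told apart. For that reason no test was run between them, and only large differences are called. Smaller ones are given as values, which the separate tables do not allow to be read as a difference between stages. Levels are RPKM (reads per kilobase of gene, scaled to library size), rescaled here so that each library has the same sum over the 10178 genes found in both tables. A difference is that of mean log2(RPKM + 1), activated minus naive, which understates the fold of genes near or below 1 RPKM. A gene was called higher or lower when it differed by at least 4-fold (2 on the log2 scale) and both activated libraries m1 and m2 lay beyond all 6 naive ones, among the 9702 genes at 1 RPKM or more in at least 2 of the 8 libraries. "Rose" and "fell" below stand for such calls. Ranges apart are part of that rule, so for called genes they are no further result. In sorted cells, fewer cells with a transcript and less of it per cell cannot be told apart.

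The estimated reads on genes, in mega-reads (M), were 17.4 to 19.7 M per naive WT library, 24.6 M in m1, 16.8 M in m2 and 5.49 M in m3. On log2 levels m1 and m2 correlated at 0.994 across genes, the naive libraries at 0.958 to 0.982 with each other, and m1 and m2 at 0.791 to 0.831 with the naive ones. These are correlations across genes, which are not independent replicates. Several libraries stood apart. Thy1, the gene of the marker sorted against, was at 23.2 RPKM in m3 against 0.0122 in m1 and 0.0510 in m2, so m3 goes against its label and is given separately throughout. Naive library A of the guide 1 arm held 5.03 RPKM of Thy1, and the other 5 at most 0.0526. Naive library C of the guide 1 arm was the highest of the 6 in 155 of the 301 genes called higher, and naive library C of the guide 2 arm held 70.8 RPKM of Jchain. Without these 3 naive libraries 317 genes were called higher and 166 lower.

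The naive arms also differed in sex-linked transcripts, given here in deposited RPKM. Ddx3y, on the Y chromosome, was at most 0.027 RPKM in the 3 naive WT libraries of the guide 1 arm, 20.3 to 24.7 in those of the guide 2 arm, and 11.8 to 14.3 in activated m1 and m2. Xist, the RNA that silences one X chromosome in female cells, was at 3.39 to 4.34 RPKM in the guide 1 arm and at most 0.047 in the guide 2 arm, and it was not listed in the cultured table. Activated libraries therefore shared Y-linked transcripts with the guide 2 arm and not with the guide 1 arm. Against the guide 2 arm alone 308 genes were called higher and 174 lower, with 285 of the 301 and 155 of the 165 calls kept.

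Transcripts that define B cells were present in both stages. Cd79a, a chain of the B cell receptor, was at 1208 to 1449 RPKM (median 1372) in naive libraries and at 827 and 1028 in activated m1 and m2. Cd79b, the other signalling chain, was at 751 to 977 RPKM (median 924) in naive libraries and at 404 and 434 in activated m1 and m2. In both genes the activated libraries lay below all 6 naive ones by less than 4-fold. Ptprc, whose B220 form was sorted for, was at 85.7 to 140.4 RPKM (median 107) in naive libraries and at 35.7 and 35.2 in activated m1 and m2, a difference of -1.56 that was under the 4-fold limit. Of the naive markers, Fcer2a (CD23), Cr2 (CD21) and Klf2 fell, while Ccr7 was below all naive libraries with a difference of -1.55. Of the activation markers Mki67 rose, and Cd80, Cd44 and Fas were above all naive libraries with differences of 1.30, 0.73 and 1.15. Cd86 was at 8.92 to 19.5 RPKM (median 14.4) in naive libraries and at 11.4 and 8.19 in activated m1 and m2, and the stages overlapped. Sdc1, the transcript of the CD138 sorted against, was at 1.99 to 3.92 RPKM (median 2.995) in naive libraries, at 0.445 and 0.266 in activated m1 and m2, and at 25.02 and 29.99 in WT plasmablasts of such cultures.

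Of the genes tested, 301 (3.1%) rose and 165 (1.7%) fell in activated cells, 466 (4.8%) in all. Among those that rose, 93 did so by at least 8-fold and 27 by at least 16-fold, against 27 and 5 among those that fell. At any size, both activated libraries lay above all 6 naive ones in 2689 genes (27.7%) and below them in 3583 (36.9%), and the median difference over all genes was -0.11. Genes that rose were mostly low in naive cells, with a median naive mean of 1.77 RPKM and an activated one of 22.2, and 100 of them had a naive mean under 1 RPKM. Genes that fell went from a median of 32.4 RPKM to 4.52. Over all tested genes the medians were 8.65 RPKM in naive and 7.89 in activated cells. A gene low in naive cells can pass the filter through the activated libraries alone. Activated m1 and m2 differed by a median of 0.11 on the log2 scale in genes that rose, 0.17 in those that fell and 0.11 over all tested genes. The median range of the 6 naive libraries was 1.03 in genes that rose, 0.50 in those that fell and 0.51 over all tested genes. By the same rule the 2 naive arms differed in 5 of 9436 genes (0.053%), all lower in the guide 1 arm: the Y-linked Kdm5d, Uty, Ddx3y and Eif2s3y, and Asb2. Both arms come from 1 table and the group sizes differ, so this count cannot show what the gap between the tables adds. At the edge of the limit, Vsir (2.001), Tipin (2.01) and Glrx (2.02) lay just inside it and Srm (1.994) and Mcm2 (1.999) just outside among higher genes. Txnip (-2.002), 9930111J21Rik2 (-2.01) and Rubcn (-2.01) lay just inside among lower genes, with Uckl1, 9930111J21Rik1 and Pisd-ps3 (-1.98 to -1.99) just outside.

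**Figure D1:**
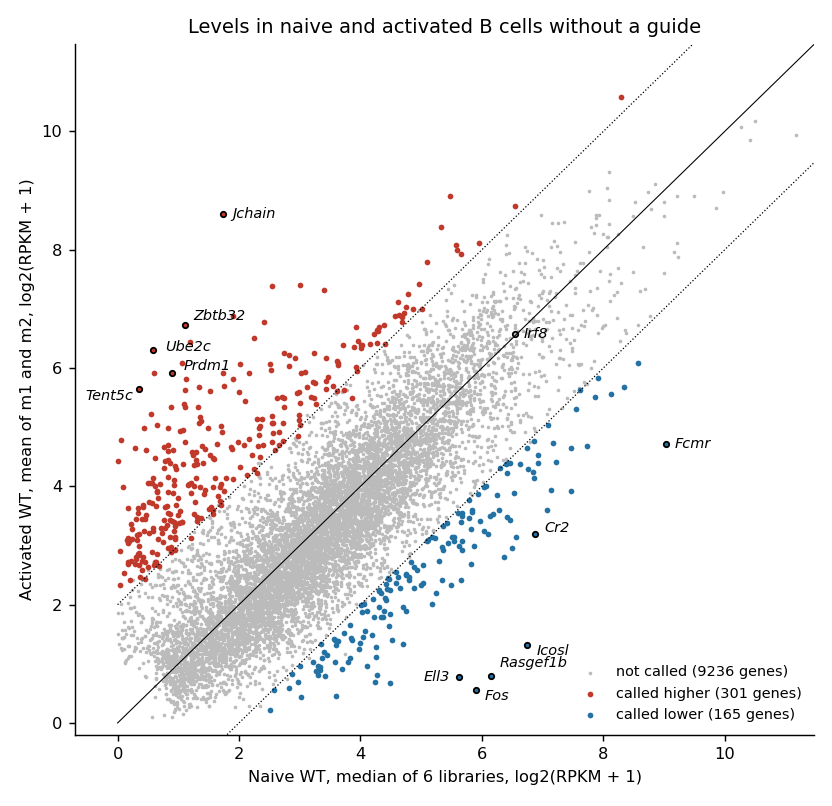
Level of each of the 9702 tested genes in naive WT cells (median of 6 libraries) and activated WT cells (mean of m1 and m2), both as log2(rescaled RPKM + 1). The solid line marks equal levels and the dotted lines 4-fold differences; the 301 red genes rose and the 165 blue ones fell, with Jchain, Zbtb32, Ube2c, Tent5c and Prdm1 at upper left and Icosl, Fos, Rasgef1b and Ell3 at lower right.

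The list with the most genes that rose was that of mitosis. Of the 40 genes listed for G2 and M phase, 34 rose and none fell, with a median difference of 3.31 against -0.11 over all genes. Without the 3 naive libraries that stood apart 35 rose. Most of their promoters held 2 short sequences, which are shown here for the 3 list members with the largest differences among those holding both within 120 bases before and 30 after the start site (RefSeq, GRCm38.p6). Capitals mark each match on either strand to CCAAT, the box bound by NF-Y, and to TTTGAA, the cell cycle homology region (CHR) that is bound by DREAM and MuvB complexes.
Ube2c (chr2:164769809-164769958, + strand): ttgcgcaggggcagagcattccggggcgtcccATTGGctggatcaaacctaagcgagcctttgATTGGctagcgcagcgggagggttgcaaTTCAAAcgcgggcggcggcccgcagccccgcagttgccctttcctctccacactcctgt
Ccnb2 (chr9:70421525-70421674, - strand): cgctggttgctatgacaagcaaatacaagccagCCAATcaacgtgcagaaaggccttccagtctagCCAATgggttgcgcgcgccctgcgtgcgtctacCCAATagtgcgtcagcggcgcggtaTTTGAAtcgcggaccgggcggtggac
Cdc20 (chr4:118437314-118437463, - strand): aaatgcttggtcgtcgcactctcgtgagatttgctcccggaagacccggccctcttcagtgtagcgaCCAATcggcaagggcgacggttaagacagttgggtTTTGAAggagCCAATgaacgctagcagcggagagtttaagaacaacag
Each of the 3 held 2 or 3 CCAAT matches and 1 CHR match. CCAAT was found in 78.4% and the CHR in 73.0% of 37 promoters (300 bases each) of the list, and both together in 64.9%. Over 9972 promoters of all tested genes these shares were 38.9%, 12.3% and 5.04%.

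Ube2c (Entrez 68612, chromosome 2, 164769929 to 164772902 on GRCm38), the E2 enzyme of the anaphase-promoting complex, was at 0 to 7.39 RPKM (median 0.495) in naive libraries and at 78.4 and 78.5 in activated m1 and m2, a difference of 5.37. Its highest naive library, at 7.39 RPKM, was C of the guide 1 arm, far below both activated ones. Ccnb2 (Entrez 12442, chromosome 9, 70407689 to 70421554 on GRCm38), a B-type cyclin that drives entry into mitosis, was at 0.0748 to 14.9 RPKM (median 2.73) in naive libraries and at 116 and 119 in activated m1 and m2 (4.96). Plk1, the kinase that orders mitotic steps, was at 0.0890 to 7.42 RPKM (median 1.10) in naive libraries and at 67.2 and 67.3 in activated m1 and m2 (4.90). Cdc20 (Entrez 107995, chromosome 4, 118432901 to 118437343 on GRCm38), which activates the anaphase-promoting complex, was at 2.21 to 19.3 RPKM (median 4.85) in naive libraries and at 163 and 168 in activated m1 and m2 (4.71). Cdc20 overlaps Elovl1 in the annotation, and how reads of overlapping genes were counted is not given in the sources used here. In all 4 genes the naive libraries spread widely below the activated pair, with library C of the guide 1 arm at the top. Mki67, the proliferation marker Ki-67, was at 0.0111 to 3.29 RPKM (median 1.14) in naive libraries and at 44.0 and 38.2 in activated m1 and m2, and m3 was at 37.5. Aurka, the spindle kinase counted with the germinal centre genes as well, rose by 3.67 to 35.2 and 34.9 in activated m1 and m2.

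Genes of DNA replication rose in 20 of 41 cases and none fell, with a median difference of 1.999. With a pseudocount of 5 in place of 1, 5 of them rose, and under both other scalings 22 did. Another 17 lay above all naive libraries by less than 4-fold, among them Mcm2. At any size 37 of 41 lay above them, against 27.7% over all tested genes. Rrm2 (Entrez 20135, chromosome 12, 24708254 to 24714146 on GRCm38), the small subunit of ribonucleotide reductase, was at 1.91 to 21.2 RPKM (median 6.99) in naive libraries and at 158 and 181 in activated m1 and m2 (4.35). Cdc45, part of the replicative helicase, was at 0.277 to 6.21 RPKM (median 2.98) in naive libraries and at 46.3 and 48.6 in activated m1 and m2 (3.73). Cdc6, which loads the helicase on origins, was at 0.0303 to 0.701 RPKM (median 0.620) in naive libraries and at 14.3 and 16.9 in activated m1 and m2 (3.45). Lig1, the ligase of Okazaki fragments, was at 2.69 to 7.14 RPKM (median 3.92) in naive libraries and at 34.1 and 34.5 in activated m1 and m2 (2.75). These 4 genes were at 21.2 RPKM or less in all naive libraries, and on the log2 scale m1 and m2 differed by less than the naive libraries did. Mcm3, Mcm5 and Mcm6, subunits of the replicative helicase, and the initiation factor Mcm10 rose by 2.27, 2.31, 2.13 and 2.73. Cdc45 and Lig1 overlap Ufd1 and Zswim9. Promoters of the list held TTTGGCGC or TTTCCCGC, the words of E2F factors, in 29.7% of 37 cases against 3.28% over all tested genes, and the CHR in 10.8%.

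Cell cycle regulators rose in 5 of 26 cases (Cks1b, Mybl2, E2f8, Cdkn1a and Ccnd2) and none fell. Cks1b, a subunit of cyclin-dependent kinases, was at 1.91 to 12.4 RPKM (median 4.32) in naive libraries and at 109 and 108 in activated m1 and m2 (4.30). Mybl2 (B-Myb), a partner of MuvB, was at 0.950 to 2.81 RPKM (median 1.59) in naive libraries and at 36.6 and 30.6 in activated m1 and m2 (3.70). Cdkn1a (p21), an inhibitor of the same kinases, was at 0.142 to 0.456 RPKM (median 0.244) in naive libraries and at 7.998 and 7.001 in activated m1 and m2 (2.75). Inhibitor and activators were thus both called higher. Ccnd2, the D cyclin of stimulated B cells, rose by 2.64 to 101 and 103 in activated m1 and m2, while Ccnd3 differed by 0.31. Of 19 genes of DNA methylation and chromatin upkeep, 6 rose and none fell. Uhrf1, which guides DNMT1 to replicated DNA, was at 3.91 to 17.02 RPKM (median 8.37) in naive libraries and at 74.9 and 76.2 in activated m1 and m2 (2.98). Hmgb2 rose by 2.64, the lamin gene Lmnb1 by 2.52, the histone chaperone gene Asf1b by 2.49 and Ezh2, the H3K27 methyltransferase, by 2.24.

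**Figure D2:**
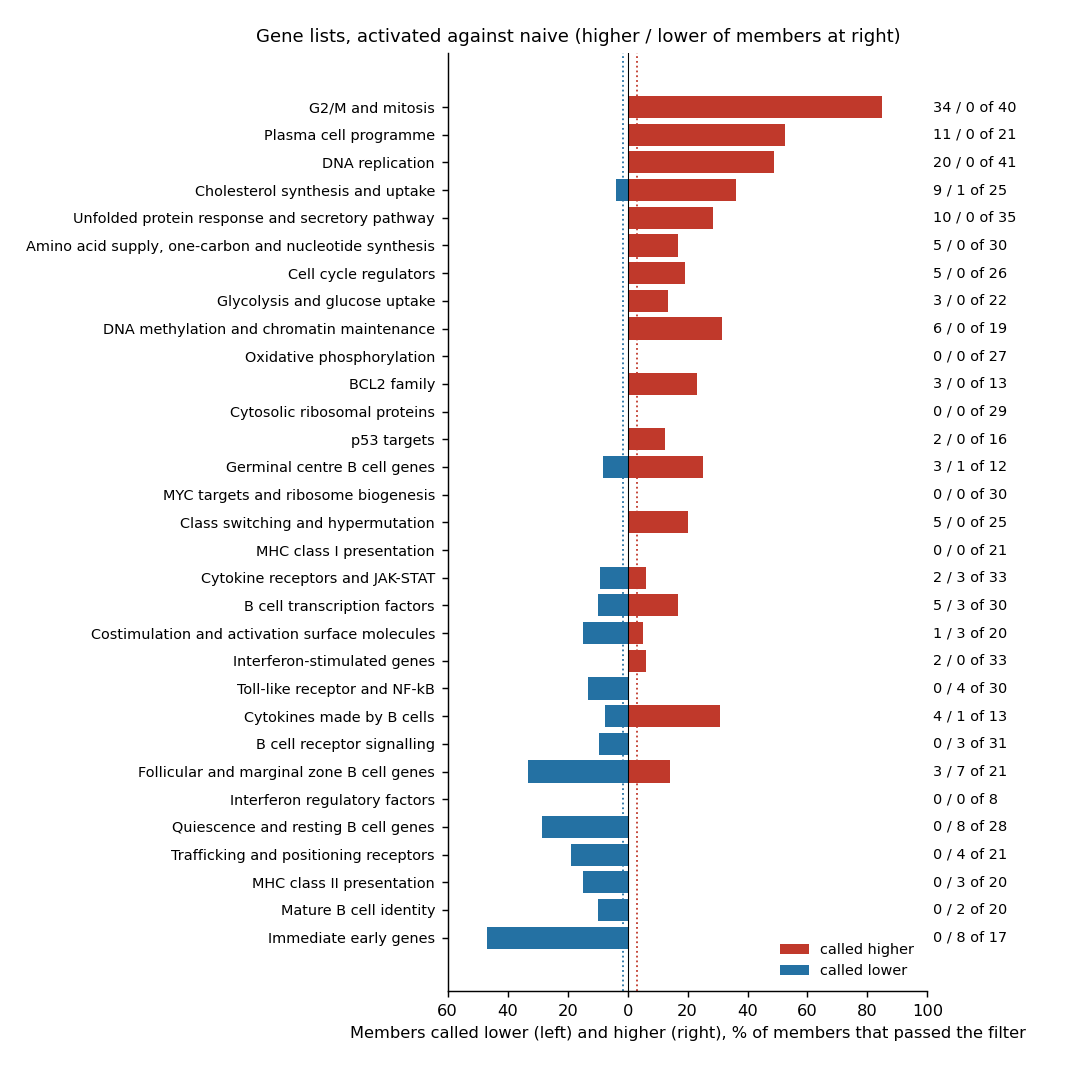
Share of the members of each gene list that rose (right, red) or fell (left, blue) in activated cells, in percent of members that passed the filter, with the counts at right and lists ordered by median difference. Dotted lines mark the shares over all tested genes (3.1% and 1.7%); mitosis (34 of 40), the plasma cell programme (11 of 21) and DNA replication (20 of 41) hold the most genes that rose, and immediate early genes (8 of 17) the highest share that fell.

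Genes of the plasma cell programme rose in 11 of 21 cases and none fell, with a median difference of 2.17 in a sort that left out CD138+ cells. Without the 3 naive libraries that stood apart 13 rose. Jchain (Entrez 16069, chromosome 5, 88519809 to 88527897 on GRCm38), the joining chain of secreted IgM and IgA, had the largest difference of all genes (6.63). It was at 0.0476 to 70.8 RPKM (median 2.34) in naive libraries and at 303 and 496 in activated m1 and m2, with 1058 RPKM in m3 and 1125 and 2195 in WT plasmablasts. The naive values spread widely, with library C of the guide 2 arm on top at 70.8 RPKM, below the 303 of activated m1. Prdm1 (Entrez 12142, chromosome 10, 44437174 to 44528558 on GRCm38), which encodes the repressor Blimp-1, was at 0.0273 to 1.36 RPKM (median 0.850) in naive libraries and at 53.3 and 66.2 in activated m1 and m2 (5.09), beside 63.4 and 67.3 in plasmablasts. Tent5c (Entrez 74645, chromosome 3, 100468057 to 100489192 on GRCm38), a poly(A) polymerase that stabilises immunoglobulin mRNA, was at 0.00806 to 0.526 RPKM (median 0.283) in naive libraries and at 41.5 and 58.2 in activated m1 and m2 (5.33), beside 141 and 158 in plasmablasts. Prdm1 was thus at about the plasmablast level in activated cells, while Tent5c and Jchain were below it. Slpi, a secreted protease inhibitor, was at 0.139 to 25.8 RPKM (median 1.29) in naive libraries and at 109 and 67.5 in activated m1 and m2 (4.86), with the naive maximum in library A of the guide 2 arm. Bhlha15 (Mist1), a factor of professional secretory cells, was at 0.0500 to 2.10 RPKM (median 1.19) in naive libraries and at 48.9 and 63.1 in activated m1 and m2 (4.91), and Hid1, involved in dense-core vesicle formation, was at 0.00859 to 0.833 RPKM (median 0.0380) in naive libraries and at 24.8 and 28.2 in activated m1 and m2 (4.58). Irf4 was at 15.3 to 27.6 RPKM (median 18.3) in naive libraries and at 63.5 and 82.2 in activated m1 and m2, apart but by less than 4-fold (1.84).

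Zbtb32 was high in activated cells and low in plasmablasts. Zbtb32 (Entrez 58206, chromosome 7, 30589680 to 30602819 on GRCm38), a repressor induced in stimulated B cells, was at 0.885 to 4.85 RPKM (median 1.15) in naive libraries and at 118 and 93.9 in activated m1 and m2 (5.39), while WT plasmablasts held 4.25 and 5.61. Plasmablasts lay near the highest naive library (4.85, C of the guide 1 arm) and above the next one (1.76). The lowest activated library was at 93.9 RPKM, against 4.85 in the highest naive one. Within the cultured table the difference was -4.17 for plasmablasts minus activated cells. Nfil3 rose by 3.11 and Batf, the AP-1 partner of IRF4, by 2.33. Of 30 B cell transcription factors 5 rose and 3 fell (Bcl6, Egr1 and Nr4a1). Bcl6, the repressor of the germinal centre, was at 20.0 to 29.1 RPKM (median 25.01) in naive libraries and at 1.74 and 1.33 in activated m1 and m2 (-3.34). Pax5 (-1.24) and Bach2 (-1.34) were below all naive libraries by less than 4-fold, and Myc was at 18.3 to 27.3 RPKM (median 20.7) in naive libraries and at 16.6 and 12.4 in activated m1 and m2 (-0.53). Irf8, the target of the guides in the other cells, was at 85.8 to 99.3 RPKM (median 92.0) in naive libraries and at 101.96 and 86.7 in activated m1 and m2, a difference of 0.02 with overlapping stages, and m3 was at 54.0.

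Among class switching and repair genes 5 of 25 rose, with H2afx, Brca1 and Batf among them, none fell, and the median was 0.12. H2afx, the histone variant phosphorylated at breaks, was at 18.7 to 58.8 RPKM (median 30.1) in naive libraries and at 179 and 161 in activated m1 and m2 (2.46). Brca1, of homologous recombination, rose by 2.47. The uracil glycosylase gene Ung, of class switching, was at 0.246 to 0.795 RPKM (median 0.538) in naive libraries and at 1.37 and 1.204 in activated m1 and m2 and differed by 0.59.

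**Figure D3:**
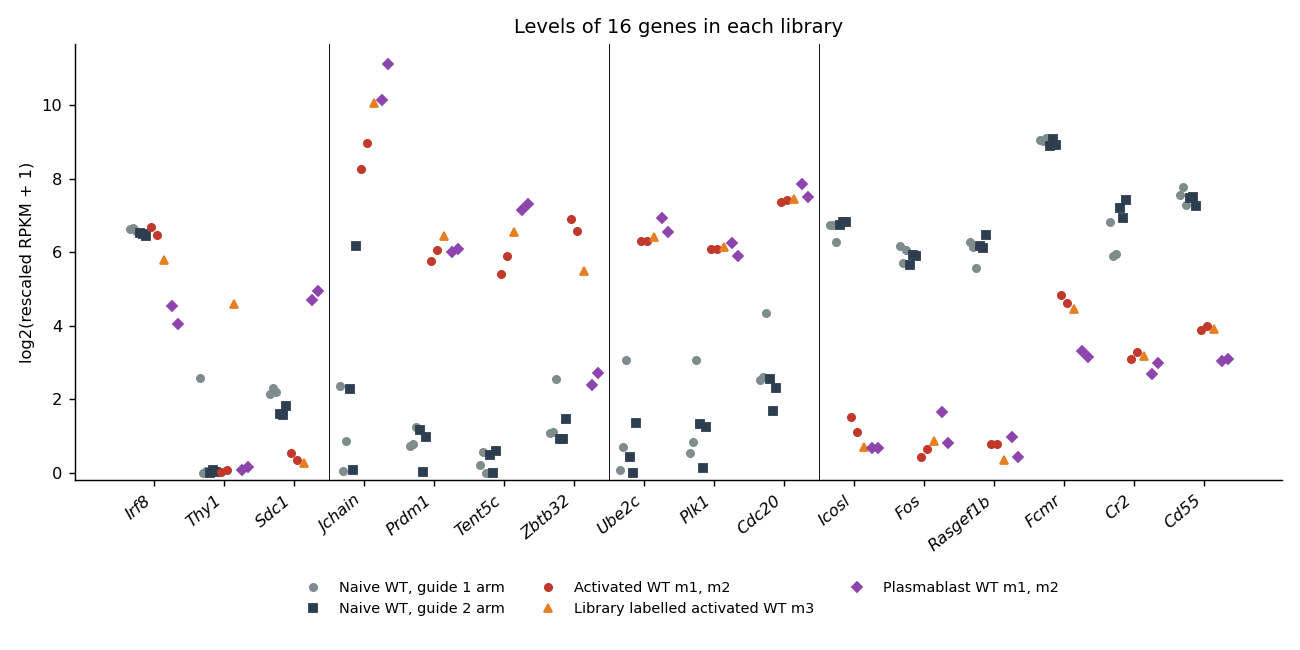
Levels of 16 genes in each WT library, as log2(rescaled RPKM + 1), with naive libraries of the 2 arms, activated m1 and m2, the library labelled activated m3 and plasmablasts as separate symbols. Vertical lines part the genes checked against the labels, the secretory and activation genes, mitotic genes and genes that fell. Thy1 is high in m3, Zbtb32 in plasmablasts is near the highest naive library, and Icosl, Fos and Rasgef1b are under 2 RPKM in m1 and m2.

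Genes of protein folding and secretion followed. In the unfolded protein response and secretory list 10 of 35 rose, none fell and the median was 1.35. Above all naive libraries lay 33 of the 35, against 27.7% over all tested genes. Xbp1 (Entrez 22433, chromosome 11, 5520641 to 5525993 on GRCm38), the factor that the stress sensor IRE1 activates by splicing, was at 32.4 to 51.5 RPKM (median 46.8) in naive libraries and at 245 and 300.1 in activated m1 and m2 (2.58). Gene-level values do not tell its spliced form from the unspliced one. Ern1, the gene of IRE1 itself, rose by 2.02. Sec24d, a cargo adaptor of COPII vesicles, was at 1.16 to 2.90 RPKM (median 1.49) in naive libraries and at 37.0 and 42.3 in activated m1 and m2 (3.93). Sdf2l1, which works with the chaperone BiP, was at 23.4 to 49.7 RPKM (median 38.9) in naive libraries and at 291 and 378 in activated m1 and m2 (3.09), and Hyou1, a chaperone of the endoplasmic reticulum, rose by 2.63 to 26.8 and 35.5 in activated m1 and m2. For each of these, m2 was above m1. Hspa5, BiP itself, was at 121 to 161 RPKM (median 151) in naive libraries and at 231 and 309 in activated m1 and m2, above by 0.87, and the stress factor genes Atf4 and Ddit3 overlapped between stages (0.20 and -0.45).

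The ER stress response element, CCAAT and CCACG with 9 bases between them, lay in 8 of 31 promoters of this list (25.8%) and in 16 of 9972 over all tested genes (0.16%). The element holds a CCAAT by its make-up, so the 2 motifs overlap. Derl3, which helps clear misfolded proteins, and Creld2, a folding factor, were the 2 genes that rose and held it, and their stretches are shown with the element in capitals (RefSeq, GRCm38.p6).
Derl3 (chr10:75893217-75893285, + strand): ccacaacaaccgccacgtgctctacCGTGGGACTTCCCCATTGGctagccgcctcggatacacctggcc
Creld2 (chr15:88819495-88819563, + strand): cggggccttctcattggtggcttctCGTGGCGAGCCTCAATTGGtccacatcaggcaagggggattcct
Derl3, counted in the plasma cell list, was at 1.33 to 4.32 RPKM (median 3.05) in naive libraries and at 56.9 and 76.1 in activated m1 and m2 (4.08). Creld2 was at 40.7 to 55.6 RPKM (median 47.0) in naive libraries and at 216 and 296 in activated m1 and m2 (2.42). The other genes of both lists with the element were Pdia6, Dnajc3, Hsp90b1, Calr, Canx, Hspa5 and Ero1b, with differences from 0.43 to 1.75, all under the 4-fold limit.

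Of the receptors for the culture's stimuli, 1 rose. Il2ra (Entrez 16184, chromosome 2, 11642792 to 11693194 on GRCm38), the alpha chain that gives the IL-2 receptor its high affinity, was at 0.894 to 2.41 RPKM (median 1.33) in naive libraries and at 23.5 and 22.5 in activated m1 and m2 (3.34). The other receptor genes passed the limit in neither direction. Il2rb was at 0.168 to 5.78 RPKM (median 1.66) in naive libraries and at 2.24 and 4.44 in activated m1 and m2, with overlapping stages. Il2rg, the shared gamma chain, was at 235 to 276 RPKM (median 262) in naive libraries and at 106 and 106 in activated m1 and m2 (-1.29). Il5ra, of the IL-5 receptor, was at 1.21 to 18.4 RPKM (median 5.93) in naive libraries and at 1.85 and 1.33 in activated m1 and m2 and overlapped, while Csf2rb, its signalling chain, was at 4.04 to 8.48 RPKM (median 5.53) in naive libraries and at 15.5 and 18.8 in activated m1 and m2 (1.47). Tlr4, the LPS receptor, was at 4.89 to 8.36 RPKM (median 6.09) in naive libraries and at 1.89 and 2.07 in activated m1 and m2, below all naive libraries (-1.28), and its partner Ly96 (MD-2) overlapped (0.16). Over 33 cytokine receptor and JAK-STAT genes 2 rose (Il2ra and the kinase gene Pim1, 2.68) and 3 fell (Il9r -2.73, Ifngr1 -2.14 and Stat6 -2.07), and against the guide 2 arm alone 5 fell. Among 13 cytokine genes 4 rose and 1 fell. Il10, the regulatory cytokine of B cells, was at 0 to 0.873 RPKM (median 0.120) in naive libraries and at 5.63 and 5.32 in activated m1 and m2 (2.35). Vegfa rose by 2.75, Mif by 2.16 and Ccl5 by 2.10, and Lta, the lymphotoxin of follicle organisation, fell (-3.46), at 51.9 to 94.99 RPKM (median 81.1) in naive libraries and at 6.99 and 5.16 in activated m1 and m2. Without m1 1 cytokine gene rose and without m2 2 did. Il10 and Vegfa could not be called in either case, since 1 activated library alone cannot meet the filter of 2.

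In cholesterol synthesis and uptake 9 of 25 rose, 1 fell (Abca1) and the median was 1.68. With the guide 2 arm alone 6 rose, and with m3 counted as activated 5 did. Insig1, the sterol sensor's partner, was at 4.68 to 10.8 RPKM (median 6.06) in naive libraries and at 71.2 and 76.5 in activated m1 and m2 (3.32). Sqle, the squalene epoxidase, was at 3.04 to 5.52 RPKM (median 4.19) in naive libraries and at 33.5 and 35.2 in activated m1 and m2 (2.82), and Fdps and Idi1, of isoprenoid synthesis, rose by 2.77 and 2.58. Abca1, which exports cholesterol, was at 6.82 to 21.9 RPKM (median 9.12) in naive libraries and at 1.04 and 0.717 in activated m1 and m2 (-2.58). The called genes of making sterol thus rose, and the called gene of exporting it, Abca1, fell. In amino acid, one-carbon and nucleotide supply 5 of 30 rose, and 3 did without m1. Asns, asparagine synthetase, was at 0.0544 to 1.02 RPKM (median 0.345) in naive libraries and at 33.1 and 28.3 in activated m1 and m2 (4.53), and Slc7a5, a carrier of large neutral amino acids, was at 4.06 to 10.6 RPKM (median 6.55) in naive libraries and at 72.8 and 69.2 in activated m1 and m2 (3.23). Pycr1 and Psat1, of proline and serine synthesis, rose by 2.97 and 2.54. Without m1 Pycr1 could not be called, since 1 activated library alone cannot meet the filter of 2.

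Glycolysis had 3 of 22 genes that rose, Pgk1 (2.28), Tpi1 (2.15) and the lactate carrier gene Slc16a1 (2.06), and 1 did with m3 counted. Slc16a1 was within the limit without m2 or without naive B of the guide 2 arm. Tpi1 overlaps Spsb2. Slc2a1, the glucose transporter GLUT1, was at 10.2 to 16.95 RPKM (median 15.5) in naive libraries and at 9.26 and 12.1 in activated m1 and m2, and the stages overlapped. No gene of oxidative phosphorylation (of 27), of cytosolic ribosomal proteins (of 29) or of MYC targets and ribosome biogenesis (of 30) passed the limit in either direction. Their medians were 0.81, 0.68 and 0.38, and all 29 ribosomal protein genes had a positive difference under the 3 scalings tried. Under both other scalings, with m3 counted, against the guide 1 arm alone, and without m1, naive B of the guide 1 arm or naive A of the guide 2 arm, 1 MYC target passed. These lists lay above the median of all genes by amounts that the separate tables do not allow to be read further.

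Of the genes that fell, Icosl (Entrez 50723, chromosome 10, 78069368 to 78079525 on GRCm38), the ligand by which B cells engage ICOS on T cells, fell most. It was at 77.0 to 111 RPKM (median 106) in naive libraries and at 1.88 and 1.15 in activated m1 and m2 (-5.37). Rasgef1b (Entrez 320292, chromosome 5, 99217420 to 99252927 on GRCm38), an exchange factor for Ras-family proteins, was at 46.5 to 86.7 RPKM (median 70.0) in naive libraries and at 0.736 and 0.742 in activated m1 and m2 (-5.32). Ell3, an elongation factor of the ELL family, was at 43.9 to 63.1 RPKM (median 48.3) in naive libraries and at 0.810 and 0.633 in activated m1 and m2 (-4.89). In these genes the lowest naive library was at 43.9 RPKM or more and the activated ones at 1.88 or less, so the stages were far apart. Fcmr (Entrez 69169, chromosome 1, 130865777 to 130880790 on GRCm38), the receptor for IgM, was at 475 to 545 RPKM (median 521) in naive libraries and at 27.4 and 23.4 in activated m1 and m2 (-4.28). Cnr2, the cannabinoid receptor CB2 of immune cells, fell to 11.8 and 10.4 in activated m1 and m2 (-3.46), and Nod1, a cytosolic sensor of bacterial peptidoglycan, fell to 0.736 and 0.762 in activated m1 and m2 (-3.48). Ifit1bl1 and Ifi208, both of interferon-inducible families, fell, with differences of -3.81 and -3.52. Both have close relatives, and Ifit1bl1 overlaps Ifit1, Ifit3b and Ifit1bl2 in the annotation, so their values are uncertain.

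Immediate early genes, which respond within minutes to stimulation and to handling of cells, fell in 8 of 17 cases with a median of -1.95, and none rose (1 did without m2). Under both other scalings 7 fell. Fos (Entrez 14281, chromosome 12, 85473890 to 85477274 on GRCm38), an AP-1 subunit, was at 49.1 to 71.1 RPKM (median 58.8) in naive libraries and at 0.363 and 0.583 in activated m1 and m2 (-5.34). Dusp2, a phosphatase of MAP kinases, was at 169 to 237 RPKM (median 212) in naive libraries and at 26.7 and 22.9 in activated m1 and m2 (-3.003). Nr4a1 (Nur77), which responds to antigen receptor signals, was at 14.0 to 22.5 RPKM (median 15.8) in naive libraries and at 2.81 and 1.27 in activated m1 and m2 (-2.60). Zfp36, which destabilises AU-rich mRNAs, was at 261 to 313 RPKM (median 277) in naive libraries and at 46.5 and 45.7 in activated m1 and m2 (-2.59). In all 4 the 6 naive libraries were the high ones, as the call rule requires. Egr1, Ier2, Ier5 and Klf6 were the other members that fell, with differences of -2.37, -2.47, -2.10 and -2.34. Naive cells were sorted without culture and activated ones after it, and the part of cell handling in these values was not tested.

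Genes of resting B cells fell in 8 of 28 cases and none rose, with a median of -1.06. Under both other scalings 6 fell. Klf2 (Entrez 16598, chromosome 8, 72319062 to 72321654 on GRCm38), the quiescence and homing factor, was at 274 to 334 RPKM (median 324) in naive libraries and at 53.2 and 48.0 in activated m1 and m2 (-2.59). Tsc22d3 (GILZ) (-3.14), the antiproliferative gene Btg1 (-2.38) and Klf3 (-2.26) fell as well. Of mature B cell identity genes, 14 of 20 lay below all naive libraries, against 36.9% over all tested genes. Their median was -1.24, and 2 of them fell, Cd37 and Bank1 (-2.08 and -2.01). Neither of the 2 was past the limit with the deposited or the median-of-ratios scaling or without m2, 1 was without naive A, B or C of the guide 2 arm, and 4 genes fell with m3 counted.

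Of 21 follicular and marginal zone genes 7 fell and 3 rose. Cr2 (Entrez 12902, chromosome 1, 195136811 to 195176880 on GRCm38), the complement receptor CD21, was at 58.2 to 169 RPKM (median 116) in naive libraries and at 7.61 and 8.77 in activated m1 and m2 (-3.50). Cd55, which protects cells from complement, was at 153 to 216 RPKM (median 177) in naive libraries and at 13.6 and 14.8 in activated m1 and m2 (-3.54). Fcer2a, the low-affinity IgE receptor CD23 of follicular cells, was at 285 to 456 RPKM (median 382) in naive libraries and at 78.6 and 56.7 in activated m1 and m2 (-2.46). All 3 are surface proteins of resting B cells. The naive spread in Cr2 was close to 3-fold, with the 2 lowest values in libraries of the guide 1 arm. S1pr3, which holds marginal zone cells in place, was at 14.8 to 51.0 RPKM (median 24.2) in naive libraries and at 3.24 and 4.53 in activated m1 and m2 (-2.48), and the Notch target Hes1 and Cd1d1 fell, with differences of -2.61 and -2.29. The members that rose were Zbtb32, described above, Cd36 (2.46) and Mzb1 (2.17), a cochaperone of immunoglobulin folding. Among 21 trafficking genes 4 fell and none rose. S1pr1, by which lymphocytes leave lymphoid organs, was at 146 to 209 RPKM (median 175) in naive libraries and at 21.0 and 27.8 in activated m1 and m2 (-2.82), and Itgb7, an integrin chain of gut homing, fell too (-2.91). Cxcr5, the follicle-homing receptor, was at 77.3 to 98.4 RPKM (median 87.9) in naive libraries and at 33.0 and 33.2 in activated m1 and m2, a difference of -1.39.

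Most signalling and presentation genes did not pass the limit, but in some lists the share that fell was above the 1.7% over all tested genes. It was 9.7% for B cell receptor signalling, 13.3% for Toll-like receptor and NF-kB genes, and 15% each for MHC class II and costimulatory genes. It was 0% for the class I, interferon regulatory factor and interferon-stimulated lists. In B cell receptor signalling 3 of 31 fell, Cr2 and Fgr among them, with a median of -0.73 and 23 below all naive libraries, where 36.9% of all tested genes lay. Fgr, a Src-family kinase, was at 6.70 to 13.8 RPKM (median 11.96) in naive libraries and at 0.824 and 0.924 in activated m1 and m2 (-2.62). Of 30 Toll-like receptor and NF-kB genes 4 fell, Nfkbid (-2.65), which binds NF-kB in the nucleus, Tlr1 (-2.39), Cd180 (-2.17), a TLR4-like receptor of B cells, and Rel (-2.06). Rel was within the limit under both other scalings and without m2 or naive C of the guide 2 arm, and against the guide 1 arm alone 2 genes fell. Of 20 MHC class II genes 3 fell, with a median of -1.22. Below all naive libraries lay 15 of the 20, against 36.9% over all tested genes. Marchf1, the ligase that removes class II molecules from the surface, was at 8.45 to 12.1 RPKM (median 11.1) in naive libraries and at 0.346 and 0.389 in activated m1 and m2 (-3.10). H2-Oa and H2-Ob, the 2 chains of H2-O, which restrains peptide loading, fell, with differences of -2.91 and -2.04, and H2-Ob was within the limit under both other scalings and without m2. With m3 counted 5 class II genes fell. Ciita, the class II transactivator, had a naive median of 57.3 RPKM, was at 15.8 and 14.1 in activated m1 and m2 and lay below all naive libraries (-1.88). None of 21 class I genes passed the limit (median -0.15), and none of 8 interferon regulatory factors did. Below all naive libraries lay 6 of these 8, against 36.9% over all tested genes. Without m1, or without the 3 naive libraries that stood apart, 1 of the 8 passed the limit as higher. Of 33 interferon-stimulated genes 2 rose, Isg20 (2.78) and Isg15 (2.72), and the median was -0.46. Among 20 costimulatory and activation genes 3 fell (Icosl, Cd200 -2.71 and Btla -2.45), and Vsir rose by 2.001, at the limit, and was within it without m2 or without naive A, B or C of the guide 2 arm.

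Of 13 BCL2 family genes 3 rose and none fell. Bcl2l1, which encodes the survival protein BCL-XL, was at 0.213 to 0.530 RPKM (median 0.445) in naive libraries and at 14.3 and 17.1 in activated m1 and m2 (3.59). Bbc3 (PUMA), which promotes death and is a p53 target, was at 0.815 to 3.04 RPKM (median 1.70) in naive libraries and at 28.8 and 19.8 in activated m1 and m2 (3.21). Bcl2a1a rose by 2.27 but has near-identical copies, so its value is uncertain. A protective and a lethal member were thus both called higher, while Bcl2 was at 19.4 to 32.7 RPKM (median 28.5) in naive libraries and at 15.1 and 12.2 in activated m1 and m2 (-0.94). Of 16 p53 targets 2 rose, Bbc3 and Cdkn1a, and 1 did without m1. In that setting Cdkn1a could not be called, since 1 activated library alone cannot meet the filter of 2.

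**Figure D4:**
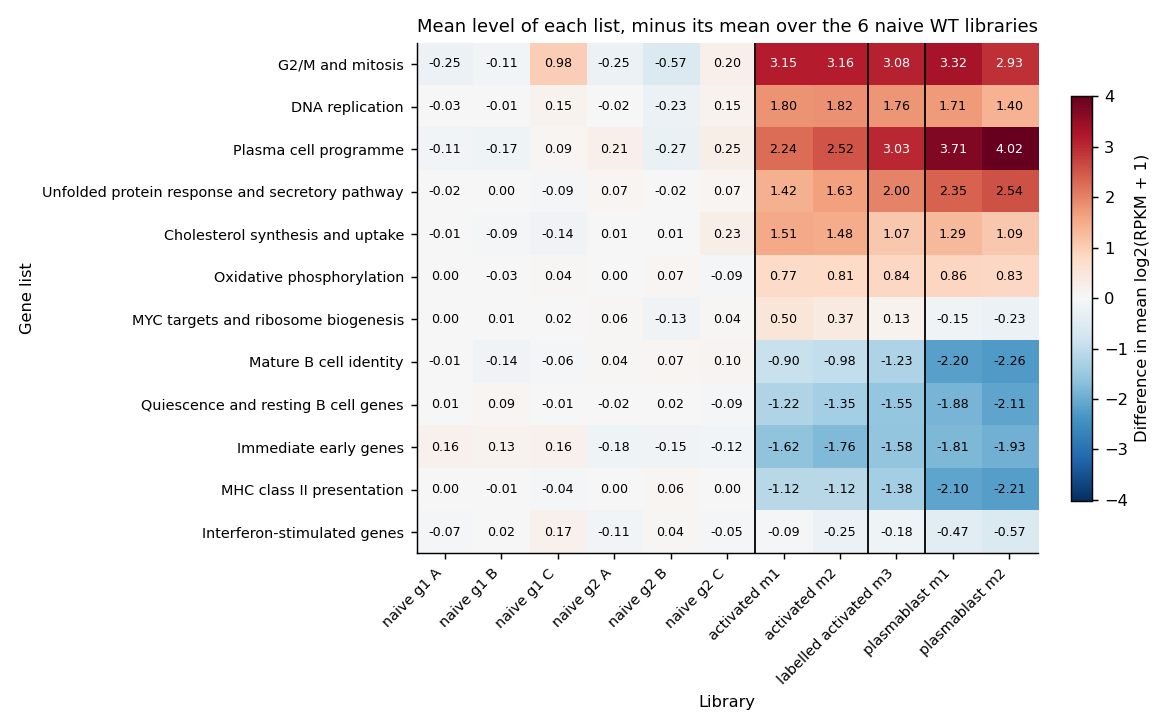
Mean log2(rescaled RPKM + 1) of 12 gene lists in each WT library, minus the list's mean over the 6 naive libraries, in log2 units (red above, blue below). Activated m1 and m2 are 3.15 and 3.16 above for mitosis and 1.62 and 1.76 below for immediate early genes; naive library C of the guide 1 arm is 0.98 above for mitosis, and the plasma cell programme is at 2.24 and 2.52 in m1 and m2, 3.03 in m3 and 3.71 and 4.02 in plasmablasts.

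The library labelled activated WT m3 lay on the same side as m1 and m2. It was beyond all 6 naive libraries in 300 of the 301 genes that rose, the exception being Ly6k, and in 165 of the 165 that fell, at least 4-fold in 254 and 159 of them. These counts use the same naive libraries as the calls. For the plasma cell list m3 was nearer to plasmablasts than m1 and m2 were, with Jchain at 1058 RPKM and Xbp1 at 509, while Zbtb32 (44.1) was lower than in m1 and m2. Its Thy1 and its depth differed from theirs too, and their part in this was not tested.

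The same rule was applied to guide 1 cells, activated KO m1 and m2 against the 3 naive KO libraries of guide 1, which share no library with the WT comparison. There 372 genes were higher (3.85% of 9663) and 161 lower (1.67%). Of these, 251 higher and 117 lower genes were also called in WT cells, which is 83.4% and 70.9% of the WT calls and 67.5% and 72.7% of the guide 1 calls. All 301 genes that rose in WT cells had a positive difference in guide 1 cells, and 164 of the 165 that fell a negative one. Both comparisons carry the same gap between the tables. Guide-carrying and WT cells also bear matching replicate labels, m-numbers when activated and letters when naive. Whether a matching label means a common culture or animal is not stated. The overlap of calls therefore cannot be read as an independent repeat. The naive guide 1 libraries lack Y-linked transcripts and the activated ones hold them, and with naive guide 2 libraries in their place 518 genes were called in all against 533. Side by side, Zbtb32 differed by 5.39 in WT and 3.87 in guide 1 cells, Jchain by 6.63 and 6.81, Ube2c by 5.37 and 6.05, Icosl by -5.37 and -5.03, S1pr3 by -2.48 and -4.15 and Il10 by 2.35 and 1.12. Whether WT and guide 1 cells differ in these values was not tested here.

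Markers of other cells were summed per library in deposited RPKM. Each sum covers only the markers its table lists. Naive and cultured sums thus cover unlike sets and cannot be read as a difference in cell content. The naive and cultured tables list 4 and 2 T cell markers, 7 and 2 natural killer ones and 7 and 3 dendritic cell ones. They list 4 and 2 erythroid markers and 4 and 1 stromal and endothelial ones. Of 18 macrophage and monocyte markers 13 were listed in the naive table, summed to 7.73 to 19.8, and 5 in the cultured one, summed to 13.3 to 14.0 in m1 and m2. None of 12 neutrophil or 6 platelet markers was listed in either. T cell markers summed to 15.9 to 25.6 in naive cells and 3.59 to 3.62 in m1 and m2, with Lck, which fell (-2.21) and is also found in B cells, as the highest at 15.1 to 21.7 and 3.53 to 3.61. Naive library A of the guide 1 arm also held the Thy1 given above. In m3 they summed to 29.1, of which Thy1 was 25.7. Natural killer markers summed to 1.36 to 19.8 in naive cells and 2.86 to 6.17 in m1 and m2. Dendritic cell markers summed to 34.2 to 49.6 in naive cells, 96.4 to 99.2 in m1 and m2 and 100.8 in m3. Of them Flt3 rose by 3.35, to 20.9 and 13.6 in activated m1 and m2, and Bst2, which interferon induces in many cells, was the highest at 31.1 to 45.8 and 76.1 to 79.8. Erythroid markers summed to 7.10 to 21.96 and 30.8 to 31.9, of which Tfrc, the transferrin receptor of dividing cells, made up 4.19 to 8.81 and 20.3 to 22.2. In naive library C of the guide 1 arm Hbb-bt, a globin gene, was higher than Tfrc, at 13.6 rescaled RPKM. Stromal and endothelial markers summed to 38.7 to 55.1 and 16.6 to 22.3, led by Pecam1. The part of other cells in the called genes was not tested.

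Promoter words were counted over all called genes, of which 231 that rose and 129 that fell have a promoter in the RefSeq table (GRCm38.p6, 250 bases before to 50 after the start, both strands). CCAAT was in 56.5% of 269 promoters of genes that rose, 36.0% of 178 of genes that fell and 38.9% over all tested genes. The CHR was in 31.6%, 14.0% and 12.3%. Without the mitosis list, the shares among genes that rose were 53.1% and 25.9%. The interferon-stimulated response element (ISRE), searched as GAAA and GAAA with NN between them, was in 4.09% of promoters of genes that rose, 7.87% of those of genes that fell, 3.2% over all tested genes and in 10 of 25 promoters of the interferon list. GGAA and GAAA with NN between them, an ETS-IRF element that IRF4 and IRF8 can bind with PU.1, was in 1.49%, 4.49% and 2.39%, and the E-box CACGTG in 8.92%, 8.99% and 10.6%. Promoters of genes that fell held fewer CpG by the median than those of genes that rose and over all tested genes. Several promoters can belong to 1 gene, a match is not a bound site, and no test was run.

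**Figure D5:**
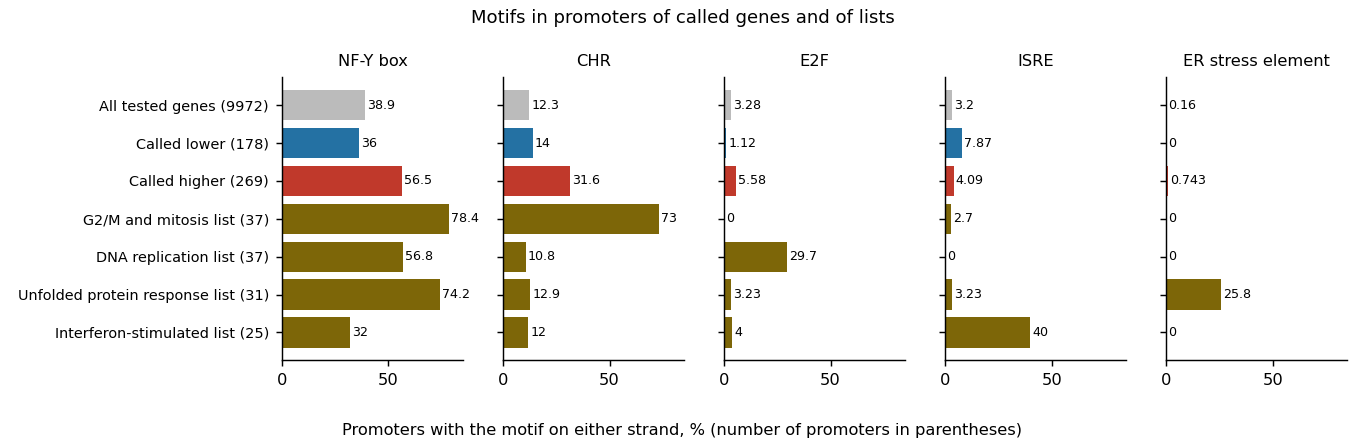
Share of 300-base promoters with each motif on either strand, in percent, for all tested genes (grey), genes that fell (blue), genes that rose (red) and 4 gene lists (brown), with the number of promoters in parentheses; the NF-Y box is the CCAAT word. The mitosis list stands out for the NF-Y box (78.4%) and the CHR (73.0%), DNA replication for E2F (29.7%), the unfolded protein response for the ER stress element (25.8%) and interferon-stimulated genes for the ISRE (10 of 25).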

How the data were processed

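Polyadenylated RNA of sorted mouse spleen B cells was made into libraries with SMART-seq v4 and Nextera XT, per the labels. The authors deposited RPKM values in a naive and a cultured table. The submitters' processing notes name STAR and mm10. Versions, the counting tool, its use of strand, the annotation and the rule for listing a gene are not given in the sources used here. Unlisted genes, which include most immunoglobulin and all mitochondrially encoded genes of the lists, are not analysed here. Depth was estimated from the steps between low values, whose reads came out within 0.2 of a whole number in 100% of cases. Shared genes held 99.5% to 99.7% of RPKM times length in the libraries used.

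Tables were joined on Entrez ID (10178 of 11548 and 10574 genes). Each library was scaled to the mean sum over these genes, and 1 was added before taking log2. Python 3.11.15, pandas 2.3.3, numpy 2.4.6 and matplotlib 3.10.9 were used, and the call rule was tested on simulated data. Coordinates and promoters are from RefSeq on GRCm38, the assembly of mm10, in which 10172 shared genes were found and 7884 of 9702 tested ones had a promoter. There were 32 programme lists and 8 lists of other cells (717 genes in both tables, some in several lists). The members and lists were chosen with earlier results of these data known. Genes named are Irf8, Thy1, Sdc1 and Ptprc, the 12 largest calls each way without predicted genes, the 4 largest calls of each list, receptors of the stimuli and 7 transcription factors, 10 genes of each table alone and 3 on each side of the limit. Cell type markers checked against the labels are named too, and further list members were named after their values were seen. Some genes that these rules name are not reported here. Alternatives were other scalings, pseudocounts, filters, a fold limit of 8, the ratio of means, either arm, m3 counted, and each library left out. Libraries of 1 group differed by more than counting noise, so none was merged. No sample column was left unmapped.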

Additional observations from a re-analysis of the deposited data

Results flagged for a closer look

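Among the 6 naive WT libraries, 1 library stood far from the other 5 in 13 of 106 named genes. For independent, normally distributed values chance gives this in about 1 of 20 groups of such size. The genes here were partly named for their calls and are not independent, so that rate is no reference for the count. In 9 of the 13 it was library C of the guide 1 arm. That library was the highest for Cdc20 (19.3 RPKM, next 5.14), the activator of the anaphase-promoting complex, and for Zbtb32 (4.85, next 1.76). It was the lowest for Bank1 (84.7), Icosl (77.0), Marchf1 (8.45), Nfkbid (85.9), Rasgef1b (46.5), Sdf2l1 (23.4) and Xbp1 (32.4). Library A of the guide 1 arm was the highest for Thy1 (5.03, next 0.0526). Library A of the guide 2 arm was the highest for Slpi (25.8, next 2.31) and Hid1 (0.833, next 0.135), and library B of that arm the lowest for Cdc6 (0.0303, next 0.524). Of these genes all but Thy1 were called, and the call rule itself requires both activated libraries beyond all 6 naive values.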

How the results depend on the processing

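The 301 higher and 165 lower calls became 346 and 130 with the deposited scaling, which moves the median difference by 0.11, and 332 and 134 with median-of-ratios scaling. A pseudocount of 0.1 gave 473 and 277, one of 5 gave 118 and 56 (21 higher for mitosis, 5 for DNA replication, 8 for the plasma cell programme and 4 for cholesterol, and 4 lower each for resting B cell and immediate early genes), and a fold limit of 8 gave 93 and 27. Of these calls m3 lay beyond the naive range in 465 genes, and in 746, 174 and 120 under those 3 settings. Filters, the ratio of means, counting m3 and either arm alone kept both counts within 1.5 times. Leaving out each library in turn gave 276 to 308 higher and 144 to 183 lower, 420 to 477 for m3, and 410 to 591 against 533 in guide 1 cells. The naive arms differed in 12 genes with a pseudocount of 0.1 and in 2 with one of 5. The alternatives for the arms, without the 3 naive libraries that stood apart and with naive guide 2 libraries were chosen after seeing the data. Of 92 named genes with a call, 59 kept it in all 19 alternatives, 33 lost it in at least 1 (most with a pseudocount of 5) and 0 reversed. Bcl2l1, Cdc6, Cdkn1a, Hid1, Il10, Pycr1, Tent5c and Vegfa lost it without m1 or without m2, since 1 activated library alone cannot meet the filter of 2. No paired analysis was possible because naive libraries carry letters and cultured ones m-numbers. The estimated 5.49 M reads (M, mega-reads) of m3 limit its low values most.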

Other observations

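Genes listed in 1 table only have no fold. The cultured table held 396 such genes, of which 156 were at 1 RPKM or more in all 3 activated WT libraries, while 1370 were in the naive table only, of which 145 were so in all 6. In deposited RPKM, the highest of the cultured table were Tmed6 (181 to 474), a member of the p24 cargo receptor family, and the histone genes H2ac4 (58.5 to 100.9), H2ac13 (48.4 to 69.1) and H2ac15 (46.7 to 70.5). Histone genes have near-identical copies, and a polyA library catches them poorly, so their values are uncertain. Gm6402, Rpph1, Gm19774, Mir692-1, Rgcc and Fads2 followed, at 21.7 to 43.6 RPKM. The highest of the naive table were Mir5107 (118 to 163) and Mir150 (48.4 to 91.4), host or precursor transcripts in these libraries and not mature miRNAs. Mir6973a, Snora31, Xkrx, Mir684-1, Mir1931, Snord72, Snord34 and Plaur followed. Of the naive-table genes named, all but Xkrx (3278 bases) and Plaur (5197 bases) are short. Short genes carry few reads per RPKM and are less certain.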
